A study of Mus musculus with 9 samples.

Results

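The genes described here carry the symbol Zfp followed by a number, the mouse name for zinc finger proteins, most of which bind DNA through arrays of C2H2 fingers. The platform annotation named 302 such genes, not counting Zfp36 and Zfp521, which were left out. A gene was taken where at least 1 of its probes had a detection p-value under 0.01 on 3 or more of the 9 arrays, whatever the group, and 177 genes met this. The other 125 did not: 116 of them had no array with a detected probe, 8 had 1 array and 1, Zfp189, had 2. The choice therefore rests on signal over background in these same arrays, and a gene detected in a single group could enter only by being brighter there. Detection on exactly 3 arrays was seen for 9 of the 177, with normalized log2 intensities from 4.60 to 7.33 over all arrays, and Zfp189, just outside, ranged from 4.7 to 6.37 with a median of 5.41. The probe used was detected on all 9 arrays for 140 genes and on fewer for 37.

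Bone marrow of C57/Bl6 mice, enriched for c-kit, had received 1 of 3 retroviral constructs by transduction, MN1, MN1-TEL or MN1-TEL del DBD, with 3 replicates each. All groups had the same background and the same 10 days in liquid culture, in RPMI containing 10% FCS, penicillin and streptomycin, with SCF (20 ng/µl) besides IL-3/IL-6 (10 ng/µl), so no untransduced or empty-vector cells enter any comparison. MN1 is a transcriptional coactivator, and MN1-TEL is a fusion of it to TEL, an ETS-family factor encoded by Etv6. The label del DBD (used below for MN1-TEL del DBD) marks a deletion, and DBD is the common abbreviation of DNA-binding domain. The labels give no number of mice, pools or clones and do not state that replicates were separate cultures, so every p-value below describes the spread among these arrays, which may be technical.

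Many Zfp genes encode KRAB zinc finger proteins. In these, the fingers recognise a DNA sequence, often inside a transposable element, and the KRAB domain recruits the corepressor Trim28, which brings the histone methyltransferase Setdb1, heterochromatin proteins and DNA methyltransferases to silence the site. Others lack KRAB and act as ordinary transcription factors, as RNA-binding proteins or as ubiquitin and SUMO ligases, so the symbol marks a protein fold and not 1 function. KRAB genes lie in clusters of duplicated neighbours, and a probe may bind more than 1 near-identical member, which these data cannot resolve.

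Values are log2 intensities after background correction and quantile normalization, 1 probe per gene, and differences are log2 differences with the standard error of the fit (n = 3 arrays a group). A gene is called where its limma p-value, adjusted over all 9136 genes measured, was under 0.05. Raw intensity differed between groups before normalization: the array means were 632 to 689 in MN1, 927 to 973 in MN1-TEL and 857 to 897 in del DBD. Each array detected 14249 to 15273 of the 45281 probes. MN1-TEL replicate 2 stood apart from its group: its median absolute deviation over the Zfp genes was 0.30, against 0.12 to 0.22 on the other 8 arrays. The groups differed in brightness, and the sign of small differences depended on the scaling. Whether the first led to the second was not tested. Each direction below is given with that dependence in view.

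The cells were checked against markers. Kit, the receptor behind the c-kit label, was detected on all 9 arrays, with log2 levels (mean ± SD, n = 3) of 13.66 ± 0.14 for MN1, 14.39 ± 0.47 for MN1-TEL and 12.16 ± 0.20 for del DBD. It was called higher in MN1-TEL than in MN1 (0.73, adjusted p = 0.0173) and lower in del DBD (-1.50, adjusted p = 0.000657). Of the 5 measured genes in its progenitor list, Cd34 and Sox4 went down in MN1-TEL, at -0.94 (adjusted p = 0.000658) and -4.58 (adjusted p = 4.51e-08), while Spn and Ptprc were not called and Flt3 was not detected. Del DBD had all 3 of Kit, Cd34 and Sox4 below MN1. The groups differed widely in neutrophil and monocyte genes. The summed linear level of 11 of 12 neutrophil markers, Ly6g not being detected, was 7369 to 9228 in MN1, 127653 to 142401 in MN1-TEL and 94711 to 101202 in del DBD. For 5 of 8 monocyte and macrophage markers it was 2316 to 2565, 38741 to 47017 and 16330 to 22329. The 3 measured erythroid markers of 5 (Alas2, Epor and Klf1) were lower in both fusion groups, their sum being 342 to 563 in MN1, 136 to 161 in MN1-TEL and 146 to 185 in del DBD. Of 7 mast cell and basophil markers, 4 were lower and 1 higher in del DBD than in MN1-TEL, among them Mcpt4 at -4.01 (adjusted p = 0.000541) and Fcer1a at -3.64 (adjusted p = 0.000898). Of the B lymphoid list only Cd79b of 5 genes was measured, at -1.40 in MN1-TEL (adjusted p = 0.000118) and 1.04 in del DBD (adjusted p = 0.00141) against MN1. The T and NK list had 1 measured gene of 5, Nkg7. Against MN1 it was at 0.91 in MN1-TEL (adjusted p = 0.0232) and 1.52 in del DBD (adjusted p = 0.00304). Of the stroma and endothelium list 2 of 5 were measured, Pdgfrb and Pecam1. In del DBD against MN1 they were at 1.24 (adjusted p = 0.00945) and 1.00 (adjusted p = 0.0485), and neither was called in MN1-TEL against MN1. These levels moved with the constructs beside every Zfp difference below, and their part in those differences was not tested. In bulk RNA, fewer cells of a type and less RNA per cell cannot be told apart.

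The regulatory stretch of a few members is shown first, because members differ between the constructs and TEL belongs to a family that reads a short DNA word. RefSeq promoter windows on GRCm38.p6, from 250 bases before to 50 after a gene's start, were found for 146 of the 177 genes, 179 windows in all. They were searched on both strands for CCGGAAGT, a sequence of the kind ETS factors bind (ACTTCCGG on the other strand), and, after the windows had been read, for ACTACAATT (AATTGTAGT on the other strand), part of a longer word known to be bound by the factors ZNF143 and THAP11 in human cells. The words do not overlap each other. Zfp184 and Zfp93 are shown since both were lower in MN1-TEL than in MN1 and than in del DBD, 1 with and 1 without the ETS word. Zfp672 and Zfp27 were picked because they alone, of the 5 genes lower in del DBD than in MN1-TEL, have a window with that word. Capitals mark the words found. Zfp184 lies at chr13:21944844-21945143 on the plus strand, Zfp93 at chr7:24270168-24270467 on the plus strand, Zfp672 at chr11:58330290-58330589 on the minus strand and Zfp27 at chr7:29906055-29906354 on the minus strand, each written 5′ to 3′ along the gene.
Zfp184: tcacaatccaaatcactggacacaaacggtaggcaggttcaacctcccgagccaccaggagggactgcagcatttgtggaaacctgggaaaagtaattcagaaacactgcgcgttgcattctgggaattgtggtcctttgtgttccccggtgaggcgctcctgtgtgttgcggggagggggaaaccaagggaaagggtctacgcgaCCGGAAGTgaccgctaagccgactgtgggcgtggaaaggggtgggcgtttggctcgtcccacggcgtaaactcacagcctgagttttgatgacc
Zfp93: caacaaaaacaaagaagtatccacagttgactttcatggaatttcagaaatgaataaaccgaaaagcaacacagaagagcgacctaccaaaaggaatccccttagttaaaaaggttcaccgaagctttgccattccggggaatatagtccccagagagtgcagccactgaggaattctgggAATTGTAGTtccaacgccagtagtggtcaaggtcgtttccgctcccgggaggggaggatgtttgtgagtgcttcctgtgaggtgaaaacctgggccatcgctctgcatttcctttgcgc
Zfp672: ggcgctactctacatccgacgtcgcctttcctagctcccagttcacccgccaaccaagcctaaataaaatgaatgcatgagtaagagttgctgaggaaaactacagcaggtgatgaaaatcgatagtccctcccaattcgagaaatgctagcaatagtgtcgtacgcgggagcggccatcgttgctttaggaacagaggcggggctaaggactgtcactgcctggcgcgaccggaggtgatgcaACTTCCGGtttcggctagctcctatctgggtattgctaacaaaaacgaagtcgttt
Zfp27: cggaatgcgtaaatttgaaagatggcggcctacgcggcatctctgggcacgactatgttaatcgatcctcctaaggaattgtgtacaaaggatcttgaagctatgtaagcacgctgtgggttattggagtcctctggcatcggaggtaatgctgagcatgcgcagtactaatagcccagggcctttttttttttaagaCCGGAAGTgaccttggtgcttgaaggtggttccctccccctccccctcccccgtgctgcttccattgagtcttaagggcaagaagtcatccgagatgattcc

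The ETS word begins at position -44 from the start in Zfp184, at -6 in Zfp672 and at -52 in Zfp27. Zfp93 holds no exact copy of the ETS word and 1 copy of the other. Only exact matches were searched, so a window without a word may still hold a variant that such factors bind. Zfp672 and Zfp27 have further windows without either word, and Zfp184 a second window that overlaps the one shown. Over all Zfp windows, 18 of 179 held the ETS word (10.1%), against 1277 of 32851 windows in the table (3.89%). By call in MN1-TEL against MN1 the share was 9.09% among genes that were higher, 10.7% among genes that were lower and 9.9% among genes not called. By call in del DBD against MN1-TEL it was in 2 of 13 windows of higher genes (15.4%) and 2 of 9 windows of lower genes (22.2%), counts too small to compare. By gene these were 1 of 11 higher genes (9.09%), Zfp184 with its overlapping windows, and 2 of 5 lower genes (40%). The other word was in 6 of 179 Zfp windows (3.35%) against 129 of 32851 (0.393%). The table holds genes whether or not they were detected here, while the Zfp genes were taken by detection. Whether other detected genes have like shares was not tested. A match describes letters and does not show binding.

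The first comparison asked how Zfp genes differed between cells carrying the fusion and cells carrying MN1 alone. Of the 177 genes, 17 were called higher and 57 lower in MN1-TEL, and 103 were not called. Together 74 were called, 41.8%, where the same test called 54.7% of all 9136 genes, a lower share than the background. The Zfp genes also had lower signal, with a median log2 level per array of 7.92 to 8.20, against 9.48 to 9.56 over all genes. The part of signal level in the lower shares called, here and below, was not tested. Higher calls were at 25.3% and lower calls at 29.4% among all genes. Of the Zfp calls 77% were lower, against 53.8% of the calls over all genes. The median Zfp difference was -0.21, against -0.06 over all genes, and the leading fall was that of Zfp703 and the leading rise that of Zfp710. This balance depends on the scaling. With each array scaled to its median over all probes, 71 Zfp genes were called higher and 20 lower. That scaling moves the median of all genes to 0.40, and the Zfp median lay 0.11 below it, against 0.15 below as reported. Of the Zfp calls 78% were then higher, against 81.4% of the calls over all genes, so the balance was near that of all genes. Calls in the reported direction under every alternative in which the gene was fitted were made for 11 higher and 20 lower genes. The alternative limited to detection on all 9 arrays left out 37 Zfp genes, some of these among them.

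A 2-fold difference was passed by 20 called genes of the 177, where 1862 of all 9136 genes (20.4%) were called and passed it. Rises were 3 of 177, against 1007 of 9136 (11%), and falls 17 of 177, against 855 of 9136 (9.36%). The share of falls was thus close to that of all genes, and the share of rises was under it. The groups did not overlap for 92 of the 177 Zfp genes, 26 higher and 66 lower, where 60.8% of all genes were so separated. For 11 genes the probe was undetected on every MN1-TEL array, 10 of them called lower, and such genes had entered through their brighter groups. Among the 140 genes detected on all 9 arrays, 15 were higher and 39 lower in the reported fit, 38.6% called. A separate fit was limited to genes detected on all 9 arrays. There 17 of 140 Zfp genes were higher and 42 lower, and 54.4% of all genes were called.

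**Figure D1:**
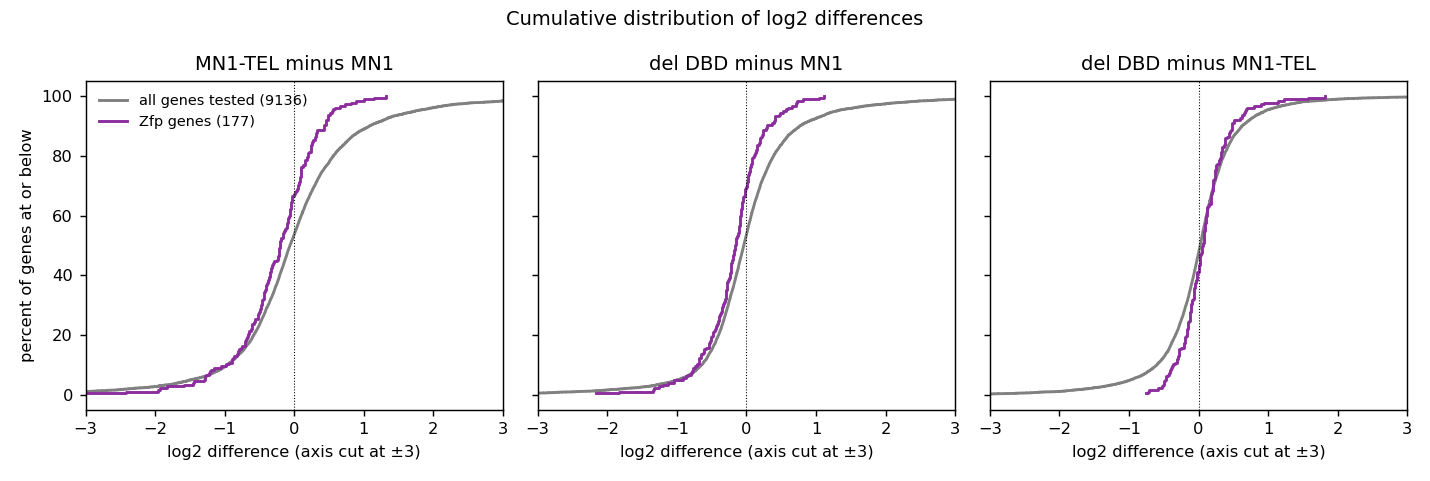
Cumulative percent of genes (vertical axis) at or below a log2 difference (horizontal axis) for all 9136 genes measured and the 177 Zfp genes, in each comparison. Below 0 lay 66.7% of Zfp genes and 53.7% of all genes in MN1-TEL minus MN1, a position that moves with the scaling, and few Zfp genes reach the outer parts of the axis.

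Zfp703 encodes a transcriptional repressor of the NET family, without a KRAB domain. It measured 11.50, 11.55 and 11.34 in MN1, 7.95, 7.49 and 7.73 in MN1-TEL and 9.29, 9.53 and 9.09 in del DBD. The 3 groups formed separate steps with no overlap. MN1-TEL was 13.3-fold below MN1, a log2 difference of -3.74 ± 0.15 (SE) with adjusted p = 1.16e-07. Against MN1, del DBD was at -2.16 with adjusted p = 5.95e-06, and against MN1-TEL it was at 1.58 with adjusted p = 9.9e-05. A second, dimmer probe of the gene gave -2.46 for MN1-TEL against MN1 and 0.53 for del DBD against MN1-TEL, the latter with adjusted p = 0.0859 over all detected probes and so not called.

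Zfp184 measured 7.69, 7.77 and 7.08 in MN1, 4.84, 5.32 and 5.11 in MN1-TEL and 6.27, 6.74 and 5.96 in del DBD. No MN1-TEL array detected it, 2 del DBD arrays did, and no 2 groups overlapped. Against a group without detection only a bound can be given, the bright group's mean over the lowest signal of any detected probe or the probe's own signal, whichever was higher per array. MN1-TEL was at least 2.74-fold lower than MN1 (adjusted p = 3.09e-05), and del DBD differed from MN1 by -1.19 ± 0.24 (adjusted p = 0.00437). Zfp93 showed another order, at 7.41, 7.37 and 6.86 in MN1, 5.36, 5.63 and 4.89 in MN1-TEL and 7.28, 7.22 and 6.85 in del DBD. Again no MN1-TEL array detected it, while the MN1 and del DBD ranges overlapped almost wholly. MN1-TEL was at least 2.23-fold lower than MN1 (adjusted p = 8.13e-05), whereas del DBD against MN1 was at -0.10 with adjusted p = 0.751.

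Zfp827 measured 7.30, 7.09 and 7.33 in MN1, 5.35, 5.18 and 5.30 in MN1-TEL and 5.35, 5.18 and 5.69 in del DBD. It was detected on the MN1 arrays and on no other. The bound was at least 2.27-fold lower in MN1-TEL (adjusted p = 3.68e-06) and at least 2.34-fold lower in del DBD (adjusted p = 1.09e-05). Both bounds rest on the floor of the arrays and cannot rank the 2 constructs. Zfp647, also detected in MN1 alone, was at least 1.52-fold lower in MN1-TEL (adjusted p = 5.98e-05) and at least 1.57-fold lower in del DBD (adjusted p = 0.000504). Zfp750, known in skin as a regulator of epidermal differentiation, was the third gene detected in MN1 alone, with bounds of at least 1.21-fold and at least 1.25-fold (adjusted p = 4.22e-05 and 3.63e-05). These 3 genes were chosen in by their MN1 signal, so their order is a description.

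Zfp239 measured 8.85, 8.50 and 8.32 in MN1, 6.44, 7.06 and 6.70 in MN1-TEL and 8.13, 7.84 and 7.66 in del DBD. All 9 arrays detected it and the groups kept apart. Its fall in MN1-TEL was -1.83 ± 0.20 with adjusted p = 5.33e-05. Zfp553 fell by 1.45 ± 0.16 on the log2 scale (adjusted p = 5.38e-05), from 7.97 to 8.24 in MN1 to 6.35 to 6.94 in MN1-TEL. Zfp267 also fell by 1.45 ± 0.22 (adjusted p = 0.000454), from 7.17 to 7.27 down to 5.20 to 6.07, where 2 of the 3 MN1-TEL arrays detected it. These 3 falls stood under every alternative in which the gene was fitted.

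The rises were smaller. Zfp710 measured 10.28, 10.11 and 10.25 in MN1, 11.53, 11.46 and 11.62 in MN1-TEL and 11.25, 11.21 and 11.53 in del DBD. Both fusion groups lay wholly above MN1 and overlapped each other. The rise was 1.33 ± 0.11 in MN1-TEL with adjusted p = 1.12e-05. Zfp715 measured 8.61, 8.54 and 8.71 in MN1, 9.63, 9.97 and 9.71 in MN1-TEL and 9.73, 9.80 and 9.47 in del DBD, the same arrangement, with a rise of 1.15 ± 0.13 in MN1-TEL (adjusted p = 6.74e-05). Zfp658 was detected on all arrays of both fusion groups and on none of MN1, and was at least 1.75-fold higher in MN1-TEL (adjusted p = 0.000534).

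Zfp672 measured 9.89, 9.66 and 10.00 in MN1, 10.69, 10.91 and 10.61 in MN1-TEL and 10.29, 10.05 and 9.69 in del DBD. Only MN1-TEL stood apart, 0.89 ± 0.17 above MN1 with adjusted p = 0.00161. Zfp619 was 0.81 ± 0.21 higher in MN1-TEL (adjusted p = 0.00911), and Zfp429 0.74 ± 0.15 higher (adjusted p = 0.00295). Zfp746, also called PARIS, a KRAB protein that represses Ppargc1a and is a substrate of the ubiquitin ligase parkin, was 0.58 ± 0.13 higher (adjusted p = 0.00378), although its other probe gave 0.19 with adjusted p = 0.35. Zfp213 was 0.66 ± 0.19 higher (adjusted p = 0.0162), and this call fell away when MN1 replicate 3 or MN1-TEL replicate 3 was left out (adjusted p up to 0.0608).

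**Figure D2:**
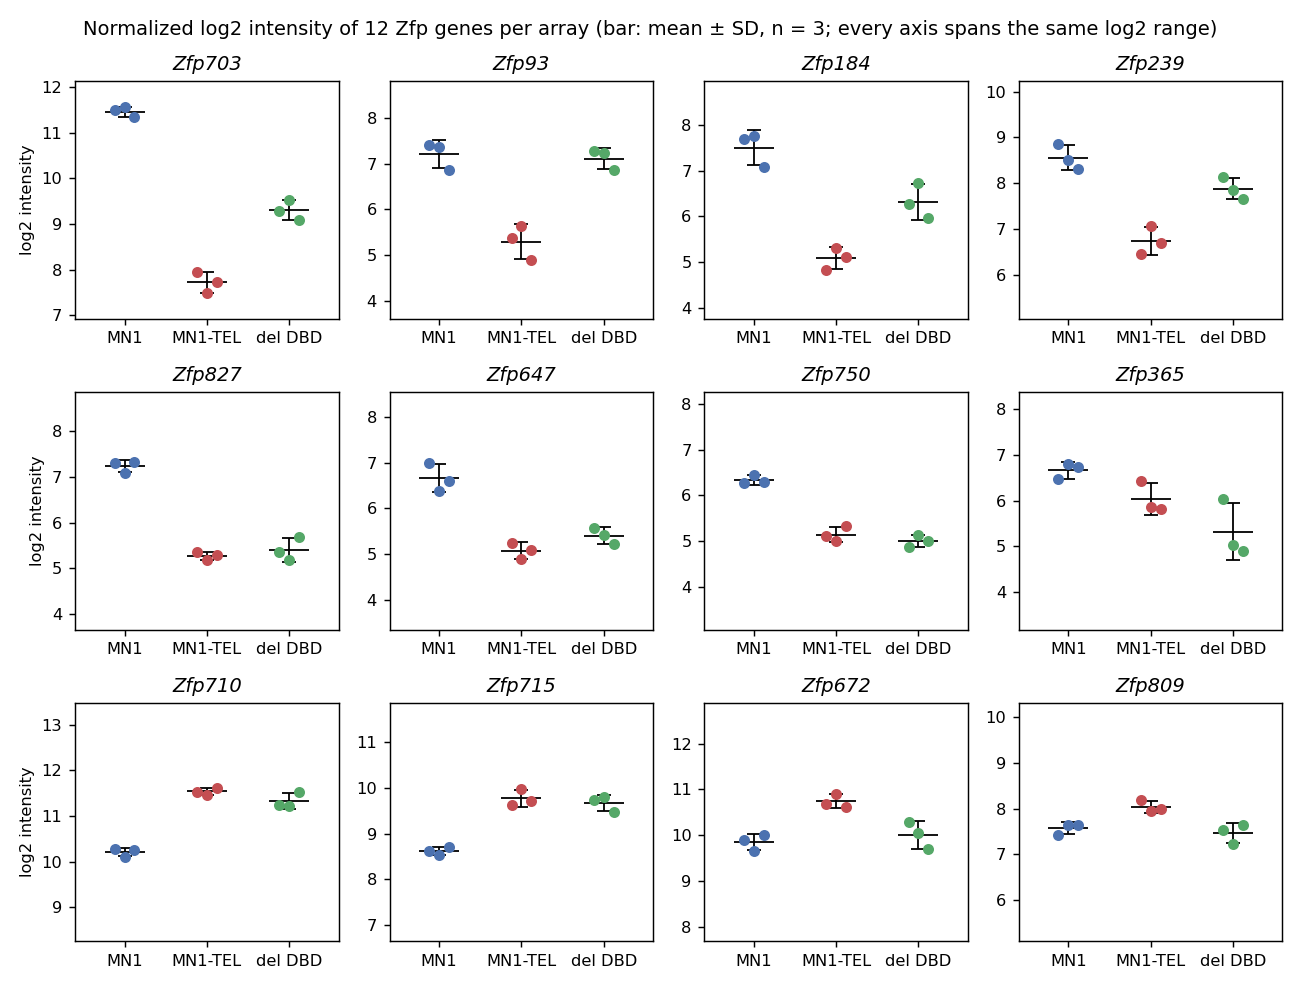
Normalized log2 intensity (vertical axis) of 12 Zfp genes on each of the 9 arrays, by construct, with points for arrays and bars for mean ± SD (n = 3). Zfp703, Zfp184 and Zfp239 step from MN1 through del DBD to MN1-TEL, Zfp93 is low in MN1-TEL alone, Zfp827, Zfp647 and Zfp750 are low in both fusion groups, and Zfp710 and Zfp715 are high in both.

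The second comparison set del DBD against MN1, so it concerns the fusion lacking the deleted stretch. Here 10 Zfp genes were called higher, 43 lower and 124 not, 29.9% called against 37.1% of all genes. Among all genes 18% were called higher and 19.1% lower. Of the Zfp calls 81.1% were lower, against 51.4% over all genes, and the median difference was -0.16, against -0.04. The same dependence on scaling held: with median scaling over all probes, 55 were called higher and 9 lower. Of these calls 85.9% were higher, against 87.1% of the calls over all genes. The median of all genes then stood at 0.34, and the Zfp median lay 0.03 below it in place of 0.13. At 2-fold, 11 of the 177 Zfp genes were called, against 12.4% of all genes, 2 of them higher and 9 lower, against 7.4% and 4.97%. Here too the share of falls was close to that of all genes, and the share of rises was under it. The groups did not overlap for 85 of the 177 genes, 20 higher and 65 lower, where 58.6% of all genes were separated. MN1 served as control in both this comparison and the previous one, so a likeness between them is partly built in. Leaving out 1 array gave from 6 to 16 higher and 23 to 49 lower Zfp genes, with 6 and 23 without del DBD replicate 3, 6 and 27 without MN1 replicate 1, 8 and 26 without MN1 replicate 2, 6 and 30 without del DBD replicate 2, and 16 and 49 without MN1-TEL replicate 2.

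Zfp710 was 1.12 ± 0.11 higher in del DBD than in MN1 (adjusted p = 6.24e-05) and Zfp715 1.05 ± 0.13 higher (adjusted p = 0.000233). Zfp429 was 0.81 ± 0.15 higher (adjusted p = 0.00312), with 6.74 to 6.82 in MN1 and 7.34 to 7.89 in del DBD. Zfp219, a DNA-binding regulator that partners Sox9 in cartilage, was 0.72 ± 0.10 higher (adjusted p = 0.000659). Zfp318, which in B cells governs the switch that permits IgD expression, was 0.66 ± 0.11 higher (adjusted p = 0.00188), and Zfp28 0.59 ± 0.12 higher (adjusted p = 0.00481). These 6 genes were called higher under every alternative. Zfp157, at 0.72 with adjusted p = 0.0252, and Zfp658, at least 1.29-fold higher with adjusted p = 0.019, each lost the call without MN1 replicate 1 and without del DBD replicate 2 or 3, with adjusted p up to 0.0886 and 0.0737.

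Among the falls, Zfp365, a gene known for roles in genome stability, measured 6.46, 6.80 and 6.74 in MN1, 6.43, 5.86 and 5.81 in MN1-TEL and 6.03, 5.03 and 4.90 in del DBD. It was detected on all MN1 arrays and on 1 array of each other group. Only the difference of del DBD from MN1 was called, at -1.34 ± 0.29 with adjusted p = 0.00608, and MN1-TEL against MN1 was at -0.63 with adjusted p = 0.0935. Zfp41 fell by 1.13 ± 0.15 (adjusted p = 0.000454), from 9.84 to 9.98 in MN1 to 8.74 to 8.86 in del DBD, and by 1.05 in MN1-TEL (adjusted p = 0.000368). Zfp90 fell by 1.04 ± 0.19 in del DBD (adjusted p = 0.00241) and by 1.27 in MN1-TEL (adjusted p = 0.000405). Zfp703, Zfp184, Zfp827, Zfp647 and Zfp750 completed the largest falls with the values given above.

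The third comparison set del DBD directly against MN1-TEL, which differ by the deletion. Only 19 of the 177 Zfp genes were called, 14 higher and 5 lower in del DBD. That is 10.7%, against 29.4% of all genes, of which 15% were called higher and 14.4% lower. The median Zfp difference was 0.06 and that of all genes 0.02. With median scaling over all probes the calls were 10 higher and 9 lower, so the share of calls that were higher went from 73.7% to 52.6%. Over all genes that share went from 51.1% to 39.1%. The 4 Zfp genes called at 2-fold were all higher, where 9.27% of all genes were called at 2-fold, 4.51% higher and 4.76% lower. The groups did not overlap for 49 Zfp genes, 28 higher and 21 lower, where 41.9% of all genes were separated. Without MN1-TEL replicate 2, the array that stood apart, 28 genes were called higher and 5 lower, and without del DBD replicate 3, 13 higher and 2 lower.

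Zfp93 was at least 2.08-fold higher in del DBD than in MN1-TEL (adjusted p = 0.000343). Zfp703 was 1.58 ± 0.15 higher, as above, and Zfp184 at least 1.20-fold higher (adjusted p = 0.00473). Zfp239 was 1.15 ± 0.20 higher (adjusted p = 0.00239). In contrast to Zfp93, Zfp239 in del DBD also lay below MN1, at -0.68 with adjusted p = 0.024, and this call fell away without either of MN1 replicates 1 and 2, without del DBD replicate 2 or 3 and with median scaling (adjusted p up to 0.522). Zfp551 was 0.89 ± 0.20 higher in del DBD than in MN1-TEL (adjusted p = 0.00995), with 6.45 to 6.59 against 5.21 to 6.06. Zfp940 was at least 1.29-fold higher (adjusted p = 0.00144) and, against MN1, at least 1.96-fold lower in MN1-TEL (adjusted p = 9.49e-06) and lower by a log2 difference of -0.61 in del DBD (adjusted p = 0.00214, lost with median scaling at 0.442). Zfp267 was 0.80 ± 0.22 higher (adjusted p = 0.0235), a call lost without del DBD replicate 2 or 3 and when the 2 groups were fitted alone (adjusted p up to 0.083).

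Zfp292, a large zinc finger protein with DNA-binding activity, measured 10.60, 10.68 and 10.73 in MN1, 9.69, 9.47 and 10.21 in MN1-TEL and 10.50, 10.77 and 10.89 in del DBD. MN1-TEL alone was low, with replicate 2 the lowest array. Del DBD lay 0.93 ± 0.18 above MN1-TEL (adjusted p = 0.00489) and 0.05 above MN1 (adjusted p = 0.847). MN1-TEL was at -0.88 against MN1 with adjusted p = 0.00297, and with median scaling this call was lost at adjusted p = 0.109.

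The 5 lower genes were Zfp619, Zfp672, Zfp809, Zfp954 and Zfp27. Zfp672 in del DBD was at -0.73 ± 0.17 against MN1-TEL with adjusted p = 0.0102. Zfp619 was at -0.75 ± 0.21 (adjusted p = 0.0242), a call lost without MN1-TEL replicate 2 or del DBD replicate 3 and with array weights (adjusted p up to 0.089). Zfp954, at -0.39 with adjusted p = 0.0302, and Zfp27, at -0.36 with adjusted p = 0.0372, lost their calls in 9 and 11 of the 20 alternatives. Under every alternative that fitted them, 9 genes were called higher (Zfp106, Zfp184, Zfp239, Zfp292, Zfp551, Zfp61, Zfp703, Zfp93 and Zfp940). The 2 called lower throughout were Zfp672 and Zfp809.

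By role, the list of retroelement and imprinting regulators held 7 genes, of which 2 were measured. Zfp809 silences retroviruses whose primer binding site matches proline tRNA, by recruiting Trim28. It measured 7.43, 7.65 and 7.65 in MN1, 8.19, 7.95 and 7.99 in MN1-TEL and 7.53, 7.22 and 7.64 in del DBD. MN1-TEL was above both other groups, which overlapped. It lay 0.46 ± 0.13 above MN1 (adjusted p = 0.0159), which fell away when MN1 replicate 1 or MN1-TEL replicate 1 was left out (adjusted p up to 0.0648), and del DBD was at -0.58 ± 0.13 against MN1-TEL (adjusted p = 0.0109). Zfp445, a partner of Zfp57 in keeping imprints, was at -0.40 ± 0.12 in MN1-TEL against MN1 (adjusted p = 0.0197), called in neither other comparison, and its call fell away when MN1 replicate 3 or MN1-TEL replicate 1 was left out. With median scaling its sign turned to 0.18 without a call.

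Among 22 DNA-binding regulators outside that list, 10 were measured. In MN1-TEL against MN1, 3 were higher (Zfp219, Zfp318 and Zfp410), 3 lower (Zfp703, Zfp292 and Zfp148) and 4 not called (Zfp281, Zfp335, Zfp467 and Zfp608), 60% called beside 54.7% of all genes. Zfp148, a regulator that binds GC-rich promoters, was at 10.33, 10.17 and 10.24 in MN1, 9.30, 9.58 and 9.37 in MN1-TEL and 9.68, 9.64 and 9.54 in del DBD. MN1 lay above both fusion groups, which overlapped. The differences from MN1 were -0.83 ± 0.11 (adjusted p = 0.000175) and -0.63 ± 0.11 (adjusted p = 0.00178), and both calls were lost with median scaling (adjusted p = 0.0807 and 0.297). Zfp410, whose human counterpart activates CHD4 through a tandem of binding sites, was at 0.48 ± 0.18 (adjusted p = 0.0417), a call lost in 9 alternatives. Its other 2 probes, in a fit of every detected probe, gave -0.19 (adjusted p = 0.508) and 0.01 (adjusted p = 0.95), so the sign was not shared.

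Zfp281, a regulator of pluripotent cells, was at -0.03 in MN1-TEL against MN1 (adjusted p = 0.883), and median scaling turned this to 0.55 with adjusted p = 0.00529. Against MN1, del DBD had 2 of these 10 genes higher and 2 lower, 40% called beside 37.1% of all genes. Against MN1-TEL, 3 were called and were higher in del DBD, 30% beside 29.4% of all genes: Zfp703, Zfp292 and Zfp608. Zfp608 measured 11.74, 11.62 and 11.79 in del DBD and 10.63, 11.39 and 11.11 in MN1-TEL, a log2 difference of 0.68 ± 0.18 with adjusted p = 0.0181 that lost its call in 5 alternatives.

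Genes for RNA, ubiquitin and protein handling numbered 17, of which 12 were measured. In MN1-TEL against MN1, 1 was higher and 5 lower, 50% called beside 54.7% of all genes. The higher one was Zfp207, a spindle protein also known as BuGZ, at 0.42 ± 0.14 (adjusted p = 0.0301), a call lost in 5 alternatives. Zfp106, an RNA-binding protein, measured 9.81, 9.99 and 10.11 in MN1, 9.22, 9.29 and 9.32 in MN1-TEL and 9.95, 9.84 and 9.93 in del DBD. It was low in MN1-TEL alone, at -0.69 ± 0.10 against MN1 (adjusted p = 0.000434) and with del DBD 0.63 ± 0.10 above MN1-TEL (adjusted p = 0.00188). The first of these calls was lost with median scaling, and the second was made in every alternative.

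Zfp451, a SUMO ligase, was at -0.79 ± 0.16 in MN1-TEL (adjusted p = 0.0022), and Zfp330 at -0.56 ± 0.13 (adjusted p = 0.00471). Both calls were lost with median scaling alone. Zfp638, an RNA- and DNA-binding protein that silences unintegrated retroviral DNA in human cells, was at -0.36 ± 0.12 (adjusted p = 0.0319), lost in 8 alternatives and turned to 0.19 without a call by median scaling. Zfp622 was at least 1.09-fold lower (adjusted p = 0.00986), its probe being undetected on every MN1-TEL array, and lost its call under 2 alternatives. For del DBD against MN1 the single call was Zfp593, whose yeast counterpart takes part in building the large ribosomal subunit, at -0.91 ± 0.21 (adjusted p = 0.0076), lost with median scaling. For del DBD against MN1-TEL it was Zfp106. Each is 8.33% of the 12 genes, beside 37.1% and 29.4% of all genes. Zfp277 is counted as not called from its brighter probe (0.21 in MN1-TEL against MN1, adjusted p = 0.186), but its probes disagreed. In the fit of every detected probe the other was at 1.41 in MN1-TEL (adjusted p = 3.36e-05) and 0.75 in del DBD (adjusted p = 0.00281) against MN1, and at -0.66 in del DBD against MN1-TEL (adjusted p = 0.00716). The mean of its probes was called in all 3 comparisons. In that fit of MN1-TEL against MN1, Zfp326 and Zfp346, not called from the probe used, each had another called probe. These were at -0.76 (adjusted p = 0.0117) and -0.45 (adjusted p = 0.0343), and the third Zfp326 probe was at -0.53 (adjusted p = 0.0675). The mean of the Zfp326 probes was called there and in del DBD against MN1-TEL. The other probe of Zfp638, counted as lower, was at -0.12 (adjusted p = 0.707).

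Neighbouring genes were read in order along the chromosomes of GRCm38.p6. Counting runs of at least 4 Zfp genes separated by no more than 5 other protein-coding genes gave 9 runs with 51 genes. In MN1-TEL against MN1, 4 of these were higher and 13 lower, 33.3% called, and of the 126 genes outside runs 13 were higher and 44 lower, 45.2% called. The shares called were 27.5% in runs and 31.0% outside them for del DBD against MN1. With MN1-TEL as the base, del DBD had 7.84% and 11.9%. In each comparison both shares were under that of all genes, 54.7%, 37.1% and 29.4% in turn. Genes of a run may share a probe's target sequence, so they are not independent.

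The run of Zfp180, Zfp235, Zfp93, Zfp61 and Zfp94 held genes that were low in MN1-TEL, and it is described after its values had been seen. Zfp61 measured 7.38, 7.16 and 7.16 in MN1, 5.86, 5.97 and 6.03 in MN1-TEL and 6.59, 6.68 and 6.40 in del DBD. The groups formed 3 separate steps, at -1.28 ± 0.11 for MN1-TEL against MN1 (adjusted p = 1.4e-05) and 0.60 ± 0.11 for del DBD against MN1-TEL (adjusted p = 0.00391). Zfp94 was at -0.93 ± 0.21 in MN1-TEL against MN1 (adjusted p = 0.00471, lost with median scaling) and at 0.62 in del DBD against MN1-TEL (adjusted p = 0.0548). Zfp180 and Zfp235, at the start of the run, were at 0.15 and -0.34 in MN1-TEL against MN1 with adjusted p = 0.286 and 0.121. The direction was thus not shared by the whole run. The longest run, 8 genes from Zfp458 to Zfp738, had 2 calls in that comparison, both higher, with a median of -0.22.

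**Figure D3:**
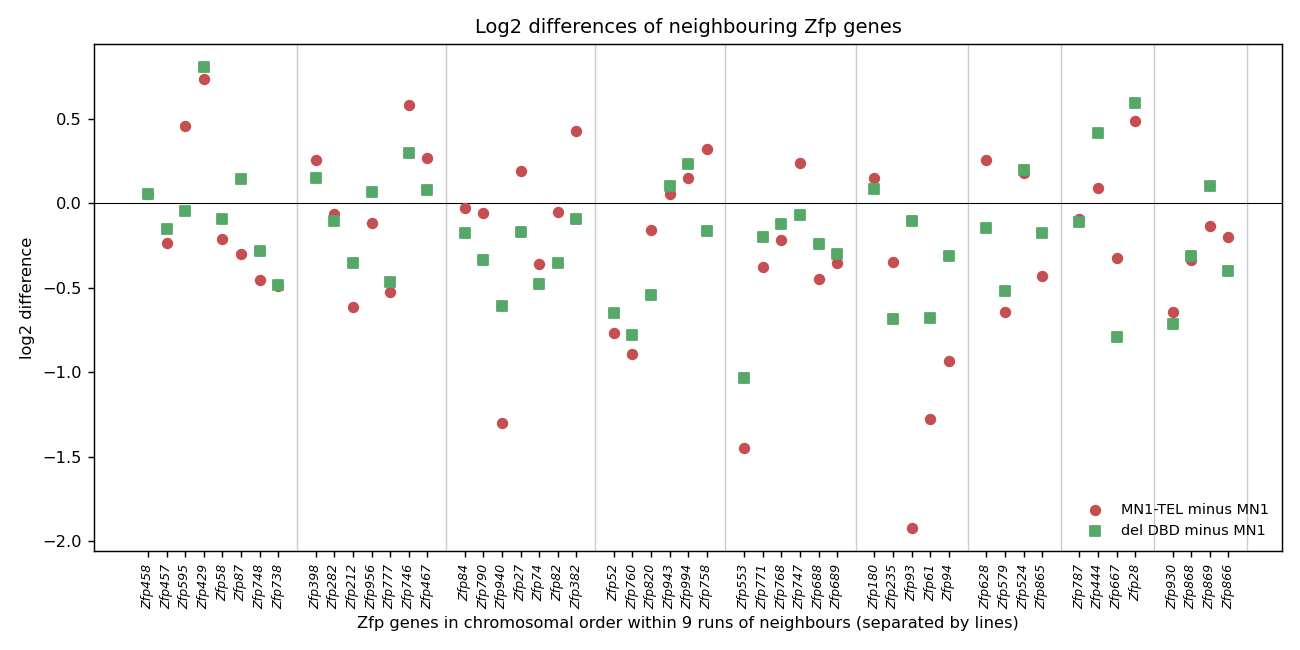
Log2 difference (vertical axis) of 51 Zfp genes in 9 runs of chromosomal neighbours (horizontal axis, runs separated by lines), with circles for MN1-TEL minus MN1 and squares for del DBD minus MN1. Within runs the differences spread on both sides of 0, and Zfp93 shows a large gap between circle and square.

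The proteins through which KRAB zinc finger proteins silence DNA were read from a list of 25 genes, 17 of them measured. In MN1-TEL against MN1, 3 were higher and 6 lower, with a median of -0.22 beside -0.06 over all genes. Relative to MN1, del DBD had 2 higher and 4 lower, and relative to MN1-TEL it had 4 called, which were higher. The shares called were 52.9%, 35.3% and 23.5%, beside 54.7%, 37.1% and 29.4% of all genes. Trim28, the shared corepressor, was at -0.22 (adjusted p = 0.123), -0.24 (adjusted p = 0.127) and -0.02 (adjusted p = 0.929) in the 3 comparisons, and Setdb1 at 0.22 (adjusted p = 0.361) in the first. Neither was called there.

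Dnmt3b, a de novo DNA methyltransferase, was at -1.66 in MN1-TEL against MN1 (adjusted p = 1.36e-05), at -0.68 in del DBD against MN1 (adjusted p = 0.00583) and at 0.98 in del DBD against MN1-TEL (adjusted p = 0.00111). Ehmt1, a histone H3 lysine methyltransferase, was at least 2.81-fold lower in MN1-TEL than in MN1 (adjusted p = 6.39e-05), and in del DBD it was at -1.15 against MN1 (adjusted p = 0.00435). Cbx5, the heterochromatin protein HP1 alpha, was at -1.68 in MN1-TEL (adjusted p = 0.000104) and at 0.86 in del DBD against MN1-TEL (adjusted p = 0.0112). In del DBD the mean of each of these 3 genes stood between those of the other groups. Chd4, a remodelling ATPase, was at -0.62 in MN1-TEL against MN1 (adjusted p = 0.00156, lost with median scaling) and at 0.56 in del DBD against MN1-TEL (adjusted p = 0.00655). Morc3 moved the other way, at 0.72 in MN1-TEL (adjusted p = 0.000303) and 0.59 in del DBD (adjusted p = 0.00183) against MN1. So did Chd3, at 0.92 in MN1-TEL (adjusted p = 0.00108) and 0.47 in del DBD (adjusted p = 0.0453) against MN1. Atf7ip was higher in MN1-TEL than in MN1, at 0.32 (adjusted p = 0.017). Under single alternatives the calls of Dnmt3b (mean of probes) and Morc3 (median scaling over kept probes) in del DBD against MN1 were lost.

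Other C2H2 families were set beside the Zfp genes as a description. Of 22 Zbtb genes, in which fingers are joined to a BTB domain, 1 was higher and 11 lower in MN1-TEL against MN1, with a median of -0.42. That is 54.5% called, beside 54.7% of all genes. Of 10 Zscan and Zkscan genes, which carry a SCAN domain, 5 were called and were lower, 50%. The calls of del DBD against MN1-TEL were 2 in the Zbtb genes and 4 in the Zscan and Zkscan genes, each of them higher in del DBD, 9.09% and 40% beside 29.4% of all genes.

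The counts of Zfp calls across settings are given in a plot. Most settings left the balance of higher and lower calls near that reported, and median scaling over all probes turned it in both comparisons against MN1. The calls over all genes turned with it, to 81.4% higher in MN1-TEL and 87.1% higher in del DBD.

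**Figure D4:**
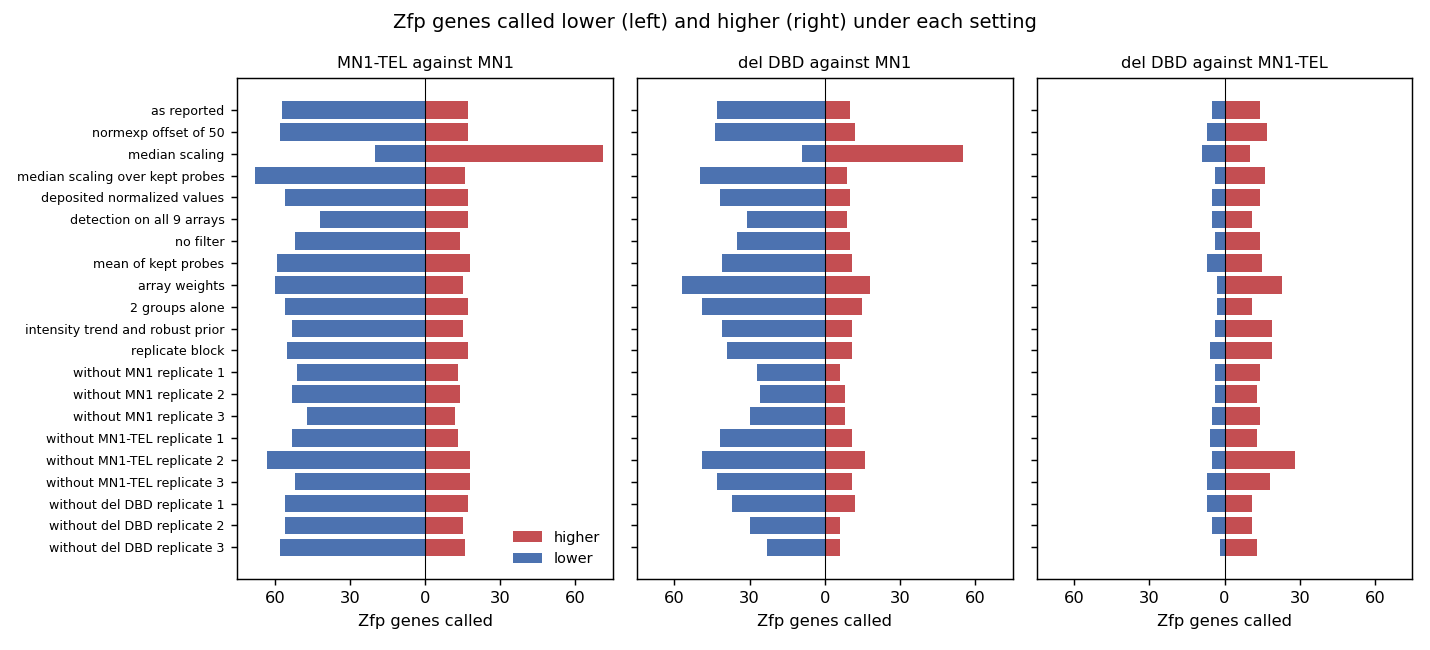
Number of Zfp genes called lower (bars to the left of 0) and higher (bars to the right) under each processing setting, for each comparison. Median scaling over all probes gives 71 higher and 20 lower in MN1-TEL against MN1, where the reported setting gives 17 and 57.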

How the data were processed

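The authors deposited raw linear intensities of every probe, without normalization, and, per the file headers, a detection p-value beside each. They also deposited normalized intensity values, used as an alternative. GenomeStudio 2010.3 was named in the submitters' processing notes, with no other step given there. Samples were grouped by their titles, and 0 columns of per-sample values stayed unmapped.

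Intensities were passed through neqc (limma 3.58.1, R 4.3.3), which corrects background by normexp from the detection p-values, adds an offset of 16, quantile normalizes and takes log2. Probes detected (p under 0.01) on 3 or more arrays were used (15870), and each gene by its brightest such probe. Among the Zfp genes 56 had more than 1. Of their 64 other probes, 15, 9 and 4 were called along with the probe used, in the 3 comparisons in turn. Each of these had the sign of the probe used, a count that leaves out pairs with only 1 probe called. In MN1-TEL minus MN1 such pairs included Zfp709, with the other probe called (1.30 beside 0.08 for the probe used). They also included Zfp212, with the probe used called (-0.61 beside -0.12 for the other). Where the probe used was not called, another could be called with the opposite sign. In del DBD minus MN1, examples were Zfp277 (0.75 beside -0.06 for the probe used), Zfp560 (0.58 beside -0.10) and Zfp709 (0.72 beside -0.04). All 177 symbols matched RefSeq through the Entrez identifier. One limma model with group as factor covered all 9 arrays and 9136 genes, with two-sided Benjamini-Hochberg adjusted tests. Precision is limited by the number of arrays. The model was tested on simulated data.

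The members, role lists, marker lists and the rule for named genes were chosen with earlier results of these data known. Named were the 8 largest rises and falls per comparison among those called with non-overlapping groups, members of 3 role lists, genes detected in 1 group only, and from the corepressor list the 3 with the smallest adjusted p per comparison. Part of the rule asked for the 3 highest levels and was not used, since levels of different probes cannot be compared. Zfp genes named for a neighbouring run, the cell type markers, Trim28, Setdb1, Chd3 and Atf7ip lie outside the rule. Replicate numbers were checked for pairing. Correlations of same-numbered arrays' deviations ran from -0.157 to 0.184, and those of differently numbered arrays from -0.417 to 0.308. This gave no sign of pairing, but with 3 arrays a group it cannot exclude it. Alternatives numbered 20.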

Additional observations from a re-analysis of the deposited data

How the results depend on the processing

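Of the named genes' calls, 28 of 42 in MN1-TEL against MN1, 15 of 28 in del DBD against MN1 and 14 of 20 in del DBD against MN1-TEL were made under all alternatives that fitted the gene. Median scaling over all probes gave 71 higher and 20 lower Zfp genes in MN1-TEL against MN1, 55 and 9 in del DBD against MN1, and 9 lower in del DBD against MN1-TEL. Median scaling over the detected probes only, an alternative chosen after seeing the data, gave 16 higher and 68 lower, 9 and 50, and 16 and 4. Array weights gave 18 higher in del DBD against MN1, and 23 higher and 3 lower in del DBD against MN1-TEL, and fitting the 2 groups alone gave 3 lower there. Under median scaling the sign turned in MN1-TEL against MN1 for Zfp281 (0.55), Zfp346 (0.54), Zfp445 (0.18) and Zfp638 (0.19), and in del DBD against MN1 for Zfp106 (0.39) and Zfp809 (0.40). The mean of a gene's probes turned Zfp277 to 0.345 in del DBD against MN1. The causes were not tested.

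Leaving out 1 array gave 12 to 18 higher and 47 to 63 lower in MN1-TEL against MN1, 6 to 16 and 23 to 49 in del DBD against MN1, and 11 to 28 and 2 to 7 in del DBD against MN1-TEL. Counts in del DBD against MN1 moved by over 1.5 times without MN1 replicate 1 (6 higher, 27 lower), MN1 replicate 2 (26 lower), MN1-TEL replicate 2 (16 higher), del DBD replicate 2 (6 higher) and del DBD replicate 3 (6 higher, 23 lower), and in del DBD against MN1-TEL without MN1-TEL replicate 2 (28 higher) and del DBD replicate 3 (2 lower). With the replicate number as a block the counts were 17 higher and 55 lower, 11 and 39, and 19 and 6. Chip position as a block was not run, since the columns name no chip. Genes near the array floor have only bounds.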
